A study of Mus musculus with 59 samples.

Results

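The 34 genes described here make cholesterol and fatty acids or control that synthesis. They were taken by gene symbol from a list of the 2 pathways, and all 34 were found among the 55421 features of the gene table. They comprise 17 enzymes of the sterol pathway, 13 genes of fatty acid synthesis, elongation, desaturation and esterification, and 4 regulators or carriers (Srebf1, Srebf2, Insig1 and Stard4). RNA was sequenced from 59 primary mammary tumors: 20 from mice given methylparaben, 20 from mice given propylparaben and 19 from mice given vehicle. Both compounds are preservatives, esters of 4-hydroxybenzoic acid that differ in the length of the alkyl group, and the study asked what chronic exposure to low levels of them does in a mouse mammary cancer model. All 3 groups were B6.FVB-Tg(MMTV-PyVT)634Mul/LellJ mice of the PyMT (+/-) genotype, in which the mouse mammary tumor virus promoter drives the polyomavirus middle T oncoprotein mainly in mammary epithelium. The sources used here do not give doses, ages, the length of exposure or which tumors came from the same mouse, so p-values measure only the spread between these tumors.

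Cells build cholesterol from acetyl-CoA through mevalonate, isoprenoids, squalene and lanosterol, and build fatty acids from the same acetyl-CoA through malonyl-CoA and palmitate. The transcription factors SREBP2, encoded by Srebf2, and SREBP1, encoded by Srebf1, are held in the endoplasmic reticulum by INSIG proteins when sterol is plentiful, and after release they bind sterol regulatory elements, often beside CCAAT boxes bound by NF-Y. SREBP2 acts mainly on the sterol branch, and the SREBP1c form mainly on the fatty acid branch. In the mammary gland, fat cells and milk-producing epithelium both run the fatty acid branch at a high rate.

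The stretches of DNA just upstream of the start sites are given for 4 members, Hmgcs1, Mvd, Elovl5 and Fasn. Hmgcs1 was the only member found with a match to the sterol regulatory element. Mvd and Elovl5 had the smallest p in each branch against vehicle. The stretches of Mvd, Elovl5 and Fasn hold CCAAT boxes and no match to the sterol element. Sequences are RefSeq's (GRCm38.p6), 5′ to 3′ on the gene's own strand, and end at or just before the start site. Capitals mark the sterol regulatory element TCACNCCAC and the CCAAT box on either strand (ATTGG on the opposite one).
Hmgcs1 (chr13:119690201-119690350, plus strand): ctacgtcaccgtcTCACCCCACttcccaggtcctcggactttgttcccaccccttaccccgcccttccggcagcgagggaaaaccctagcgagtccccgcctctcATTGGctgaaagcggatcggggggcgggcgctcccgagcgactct
Mvd (chr8:122443423-122443572, minus strand): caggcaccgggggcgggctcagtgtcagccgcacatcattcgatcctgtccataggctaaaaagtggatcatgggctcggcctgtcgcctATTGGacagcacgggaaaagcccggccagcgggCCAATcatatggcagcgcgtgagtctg
Elovl5 (chr9:77917215-77917363, plus strand): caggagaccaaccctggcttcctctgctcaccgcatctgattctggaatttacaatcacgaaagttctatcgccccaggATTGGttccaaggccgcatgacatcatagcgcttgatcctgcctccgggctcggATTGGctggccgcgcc
Fasn (chr11:120824548-120824697, minus strand): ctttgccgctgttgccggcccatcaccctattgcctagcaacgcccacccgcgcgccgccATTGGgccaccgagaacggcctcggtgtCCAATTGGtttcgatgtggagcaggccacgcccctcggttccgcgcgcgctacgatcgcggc

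RefSeq's table held a promoter for 27 of the 34 members. In the 250 bases upstream of the start, searched on both strands, all 14 sterol enzymes with a promoter held CCAAT. So did 6 of 10 fatty acid genes and 33.85% of the 32851 mouse promoters. Where a member had several promoters, it counted if any of them held the letters. The shares of all promoters count each promoter singly, so member counts and these shares are not like for like. TCACNCCAC was found in 1 member, Hmgcs1, and in 1.053% of all promoters. The GC box GGGCGG was found in 13 of 14 sterol enzymes, in 5 of 10 fatty acid genes and in 32.742% of all promoters. In Fasn the final pair of CCAAT boxes overlap, 1 on each strand. These matches describe letters in this window, and a window without a match says nothing on whether a factor binds.

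The deposited gene values are counts scaled by the authors with 1 factor per library, called normalised counts below. Libraries held 1166502 to 2032789 reads on genes, and between 307255 and 1059351 in a separate table of introns. The epithelial keratin gene Krt18 lay between 67.3 and 231.6 normalised counts in all tumors. Methylparaben replicate 5 stood apart: its 13 adipocyte markers summed to 14517, against 3668 in the next tumor (propylparaben replicate 5), and its brown fat markers summed to 1746, against 111.0 in the next. Without that library the adipocyte sums ran up to 1460 in methylparaben tumors, 3668 in propylparaben tumors and 704.7 in vehicle tumors, with medians over all libraries of 790.1, 373.4 and 269.1 in the same groups. Adipoq, Fabp4, Cfd, Lpl, Lipe and Cd36 were above 0 in every tumor. Vehicle replicates 7, 8, 10, 13, 14 and 19 and propylparaben replicate 1 lay at one end of the first principal component of all genes, which held 19.11% of the variance. Most of these 7 were high in mitosis genes, but methylparaben replicate 4, not among them, had a higher mitosis mean than vehicle replicate 13 (5.90 against 5.82 on the log2 scale). In bulk tissue, a larger share of a cell type and more RNA per cell cannot be told apart.

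In methylparaben against vehicle tumors, no member passed the test (limma on log2(normalised count + 1), adjusted p under 0.05), where 1.32% of the 14487 genes tested did. That share hung on single libraries: the 191 genes became 1 without vehicle replicate 8 and 932 without vehicle replicate 5. The sterol enzymes had a median log2 difference of -0.06, with 12 of 17 below 0, and the fatty acid genes a median of -0.03, with 7 of 13 below 0. The fatty acid median turned to 0.07 with the mitosis mean as covariate, 0.05 in edgeR, 0.06 in DESeq2 and 0.13 without the 7 libraries at the end of the first principal component. Over all genes tested the median was 0.01. At an unadjusted p under 0.05, 3 members were higher and 4 lower, 7 of 34 in all, against 22.1% of all genes, of which 11.8% were higher and 10.3% lower. The members with the smallest p in the sterol branch were Mvd, Sqle and Dhcr7, and in the fatty acid branch Elovl5, Me1 and Scd2.

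Mvd (chr8:122433601-122443422, minus strand) encodes mevalonate diphosphate decarboxylase, which makes the isoprenoid unit isopentenyl diphosphate. Its level ran from 13.3 through a median of 20.7 to 28.4 normalised counts in methylparaben tumors, and from 12.8 through 27.8 to 45.1 in vehicle tumors. The groups overlapped, but 18 of 20 methylparaben tumors lay under the vehicle median. The log2 difference was -0.33 ± 0.11 (SE; adjusted p = 0.0750, limma).

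Sqle encodes squalene epoxidase, the first oxygen-requiring step of the sterol pathway. It averaged 59.4 ± 9.96 normalised counts in methylparaben tumors and 69.0 ± 13.2 in vehicle tumors (SD), with 16 of 20 methylparaben tumors under the vehicle median (log2 difference -0.21 ± 0.08, adjusted p = 0.106, limma). Dhcr7, whose product makes the last reduction in one route to cholesterol, averaged 15.8 ± 2.93 and 18.8 ± 4.89 in the same groups, and 16 of 20 methylparaben tumors were under the vehicle median (adjusted p = 0.238, limma).

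Elovl5 (chr9:77917364-77984519, plus strand) encodes an elongase of polyunsaturated fatty acids. Its level ran from 47.8 through a median of 87.5 to 153.3 normalised counts in methylparaben tumors, and from 55.8 through 105.8 to 186.5 in vehicle tumors. In 17 of 20 methylparaben tumors it lay under the vehicle median, while the ranges overlapped over most of their length. The log2 difference was -0.36 ± 0.12 (SE; adjusted p = 0.0797, limma).

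Me1, the cytosolic malic enzyme that supplies NADPH for fatty acid synthesis, stood on the other side. It ran from 73.3 through a median of 89.8 to 193.2 normalised counts in methylparaben tumors, and from 54.6 through 77.1 to 121.0 in vehicle tumors. The value of 193.2 came from methylparaben replicate 5, and the next highest methylparaben tumor had 115.3, below the highest vehicle tumor. Me1 was above the vehicle median in 18 of 20 methylparaben tumors, with a log2 difference of 0.24 ± 0.08 (SE; adjusted p = 0.0882, limma). Scd2, a stearoyl-CoA desaturase, averaged 273.4 ± 69.1 in methylparaben tumors and 321.8 ± 71.1 in vehicle tumors (SD), a log2 difference of -0.24 ± 0.10 (SE; adjusted p = 0.138, limma). Its neighbour and close paralog Scd1 had 550.5 ± 199.7 and 494.5 ± 221.8 normalised counts in the same groups (SD; adjusted p = 0.462, limma). Reads shared between Scd1 and Scd2 could have been split or dropped in counting.

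Fasn, the fatty acid synthase that makes palmitate, shows how far 1 tumor carried a mean. It ran from 62.0 through a median of 96.0 to 944.8 normalised counts in methylparaben tumors, and from 42.8 through 79.0 to 144.5 in vehicle tumors. The value of 944.8 came from methylparaben replicate 5, and the next highest methylparaben tumor had 134.3, below the highest vehicle tumor. The log2 difference was 0.37 ± 0.18 with that tumor (SE; adjusted p = 0.220, limma) and 0.21 without it. Gpam, which starts triglyceride assembly, had 162.7 in that tumor and at most 38.9 in the other methylparaben tumors, and its log2 difference was 0.27 with the tumor and 0.15 without it. Acaca, which makes malonyl-CoA, went the same way, with a log2 difference of 0.26 with replicate 5 and 0.12 without it.

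Among the regulators, Srebf1 had the smallest p. It averaged 145.7 ± 30.4 normalised counts in methylparaben tumors and 130.2 ± 31.5 in vehicle tumors (SD), a log2 difference of 0.18 ± 0.10 (SE; adjusted p = 0.295, limma). Srebf2 averaged 135.7 ± 18.7 and 132.2 ± 17.9 in the same groups (SD), and the 95% interval of its log2 difference ran from -0.10 to 0.17. Insig1, whose product anchors SREBPs and which is itself a target gene of SREBPs, averaged 11.3 ± 4.26 and 13.1 ± 7.51 in the same groups (SD; adjusted p = 0.749, limma). Some exon bases of Srebf1 overlap Rai1 on the other strand, as do some of Cyp51 with Akap9 and of Fdft1 with Ctsb. The sources used here do not say whether counting used strand, so reads on the shared bases of these pairs cannot be told apart.

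**Figure D1:**
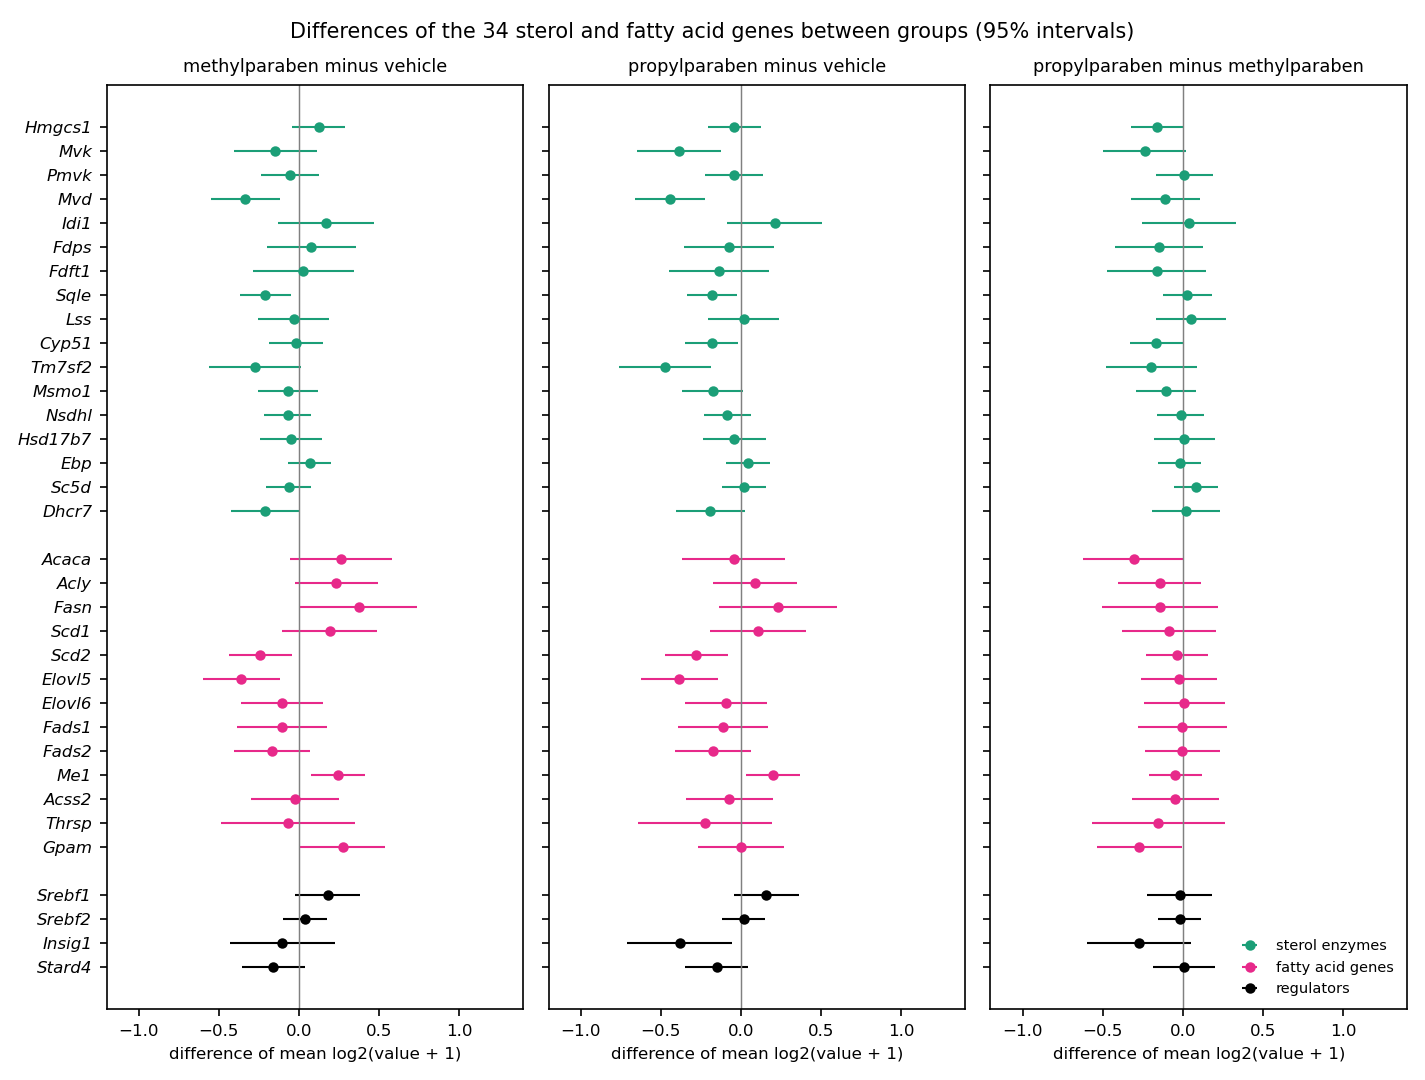
Difference of mean log2(normalised count + 1) for each of the 34 members (points) with its 95% interval from limma (lines), for methylparaben minus vehicle, propylparaben minus vehicle and propylparaben minus methylparaben. Mvd and Elovl5 lie left of 0 against vehicle for both compounds and Me1 right of it, and no member reached an adjusted p under 0.05.

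In propylparaben against vehicle tumors, again no member passed the test, where 0.0276% of the 14487 genes did. Those 4 genes became 1 without propylparaben replicate 8 or vehicle replicate 13, and 424 without vehicle replicate 5. The sterol enzymes had a median log2 difference of -0.08, with 13 of 17 below 0, the fatty acid genes a median of -0.07, with 8 of 13 below 0, and all genes tested a median of -0.00. The fatty acid median was 0.04 without the 7 libraries. At an unadjusted p under 0.05, 1 member was higher (Me1) and 8 were lower, 9 of 34 in all, against 18.4% of all genes, of which 8.92% were higher and 9.49% lower. The sterol enzymes among them were Mvk, Mvd, Sqle, Cyp51 and Tm7sf2. The vehicle tumors are the same as in the first comparison, so the values for the 2 compounds are not independent.

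Mvd ran from 12.9 through a median of 19.6 to 27.03 normalised counts in propylparaben tumors, against 12.8, 27.8 and 45.1 in vehicle tumors. All 20 propylparaben tumors lay under the vehicle median, and 18 of the 19 vehicle tumors had 19.4 or more. The log2 difference was -0.44 ± 0.11 (SE; adjusted p = 0.0654, limma), the smallest adjusted p of any member. Tm7sf2, a sterol reductase acting after lanosterol, averaged 2.52 ± 1.22 normalised counts in propylparaben tumors and 3.77 ± 1.26 in vehicle tumors (SD), with 17 of 20 propylparaben tumors under the vehicle median (log2 difference -0.47 ± 0.14, adjusted p = 0.0868, limma). It rests on few reads, with a median of 7 per library, and part of its exons overlaps Vps51 on the same strand. Mvk, mevalonate kinase, averaged 5.06 ± 1.76 and 6.78 ± 1.79 in the same groups (SD; log2 difference -0.39 ± 0.13, adjusted p = 0.114, limma), from a median of 13 reads per library.

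Elovl5 averaged 83.8 ± 16.6 normalised counts in propylparaben tumors and 113.2 ± 36.4 in vehicle tumors (SD). The log2 difference was -0.39 ± 0.12 (SE; adjusted p = 0.0920, limma), and 17 of 20 propylparaben tumors were under the vehicle median. Scd2 averaged 262.3 ± 43.6 and 321.8 ± 71.1 in the same groups (SD; log2 difference -0.28 ± 0.10, adjusted p = 0.129, limma). Me1 was above the vehicle median in 18 of 20 propylparaben tumors, at 91.1 ± 10.9 against 80.7 ± 18.4 in vehicle tumors (SD; log2 difference 0.20 ± 0.08, adjusted p = 0.194, limma). Fasn averaged 99.6 ± 33.96 and 85.8 ± 29.7 in the same groups (SD; adjusted p = 0.509), Scd1 520.1 ± 176.9 and 494.5 ± 221.8 (SD; adjusted p = 0.734), and Sqle 60.5 ± 9.49 and 69.0 ± 13.2 (SD; adjusted p = 0.204, limma).

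Insig1 was the regulator with the smallest p. It ran from 5.44 through a median of 8.82 to 12.8 normalised counts in propylparaben tumors, and from 3.68 through 11.4 to 34.3 in vehicle tumors. The vehicle tumors therefore held both the lowest and the highest values, and their spread was wider (SD 7.51 against 1.96 in propylparaben tumors). The log2 difference was -0.38 ± 0.16 (SE; adjusted p = 0.201, limma). The 95% interval of the log2 difference ran from -0.04 to 0.36 for Srebf1 and from -0.12 to 0.15 for Srebf2.

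**Figure D2:**
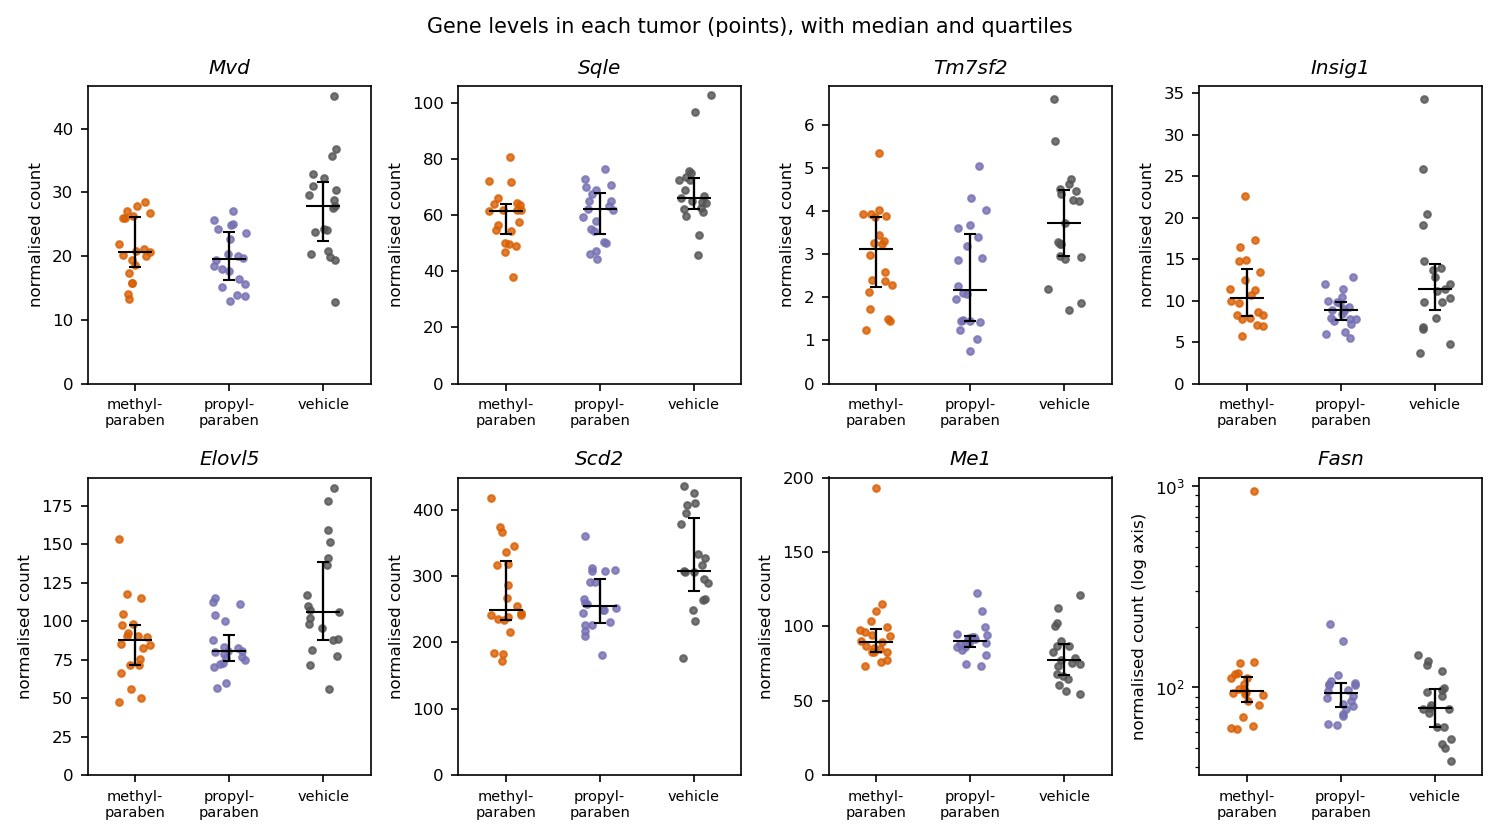
Normalised counts of 8 members in each tumor (points; methylparaben n = 20, propylparaben n = 20, vehicle n = 19), with the median and quartiles in black; the Fasn axis is logarithmic. All propylparaben tumors lie under the vehicle median of 27.8 for Mvd, and methylparaben replicate 5 stands alone at 944.8 for Fasn.

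The 12 genes of the mitosis list were all below 0 in both compounds against vehicle (median log2 difference -0.49 for methylparaben and -0.42 for propylparaben), and Ccna2 and Ccnb1 passed the test in methylparaben tumors. Their summed level ran from 308.1 to 1074 normalised counts in methylparaben tumors, from 360.6 to 1333 in propylparaben tumors and from 372.7 to 1468 in vehicle tumors. With the mean of the mitosis list as a covariate, the log2 difference of Mvd was -0.11 for methylparaben and -0.26 for propylparaben, and that of Elovl5 was -0.18 and -0.24. Tm7sf2 was at -0.58 for propylparaben with the covariate. Without the 7 libraries at the end of the first principal component, Mvd was at -0.16 for methylparaben and -0.27 for propylparaben, Elovl5 at -0.21 and -0.26, and the lowest adjusted p of any member was 0.844 for methylparaben and 0.845 for propylparaben (limma). The 13 adipocyte markers were all above 0, with median log2 differences of 1.19 for methylparaben and 0.84 for propylparaben, and none passed. What part these lists have in the differences of the members was not tested beyond these values.

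The choice of test decided whether Mvd and Elovl5 were called. On the reads recovered from the scaled values, edgeR's quasi-likelihood test called Mvd in methylparaben (adjusted p = 0.0419) and in propylparaben tumors (adjusted p = 0.0437), where it called 4.04% and 0.214% of genes. DESeq2 called both Mvd (adjusted p = 0.0337 and 0.0211) and Elovl5 (adjusted p = 0.0487 and 0.0437) in the same comparisons, where it called 4.89% and 1.93% of genes. No other member was called by either.

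Between the 2 compounds, no member passed the test in limma and no gene did (0% of 14487). On recovered reads edgeR called 0.145% of genes and DESeq2 0%, and neither called a member. The sources used here do not say whether doses matched. The median log2 difference, propylparaben minus methylparaben, was -0.02 for the sterol enzymes and -0.05 for the fatty acid genes, with 10 of 17 and 12 of 13 below 0. Over all genes the median was -0.01 and 46.6% were above 0. Without methylparaben replicate 5, 28 of the 34 members kept their sign. With each library left out in turn, Fasn, Me1, Acss2, Elovl5, Fads1 and Fads2 each rose above 0 in some set. The highest was Acss2, at 0.07, so the 12 of 13 hung on single libraries. At an unadjusted p under 0.05 there was 1 member, lower in propylparaben tumors, against 2.15% of all genes, of which 0.787% were higher and 1.36% lower. It was Gpam, at 27.6 ± 7.02 normalised counts in propylparaben tumors and 36.9 ± 29.99 in methylparaben tumors (SD), with a log2 difference of -0.27 (95% interval -0.53 to -0.01) that became -0.15 without methylparaben replicate 5. Acaca followed, at 23.3 ± 7.51 and 32.8 ± 33.2 in the same groups (SD; log2 difference -0.31, and -0.17 without that library), and Acly, which makes cytosolic acetyl-CoA, at 61.6 ± 11.1 and 70.6 ± 25.9 (SD; log2 difference -0.14).

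In the sterol branch, the smallest p between the compounds belonged to Hmgcs1, Cyp51 and Mvk. Hmgcs1, which commits acetyl units to mevalonate, averaged 100.1 ± 10.7 normalised counts in propylparaben tumors and 115.6 ± 38.2 in methylparaben tumors (SD; log2 difference -0.16, 95% interval -0.32 to 0.00). Methylparaben replicate 5 held the highest Hmgcs1 value, 260.9, and without it the difference was -0.10. Cyp51, the lanosterol demethylase, averaged 45.5 ± 7.34 and 51.3 ± 9.73 in the same groups (SD; log2 difference -0.16, 95% interval -0.33 to 0.00), and Mvk had a difference of -0.24 (95% interval -0.50 to 0.02). Mvd differed by -0.11 (95% interval -0.32 to 0.11) and Elovl5 by -0.03 (95% interval -0.26 to 0.21). Insig1 averaged 8.81 ± 1.96 and 11.3 ± 4.26 in the same groups (SD; log2 difference -0.27, 95% interval -0.60 to 0.05). The adjusted p was 1.000 to 3 decimals for each of these (limma).

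Intron reads, which come mostly from unspliced RNA, were tested for 33 of the 34 members, since Fdps had 0 intron reads in every library. No member and no intron row passed in any comparison (0% of 14281 rows in each). At an unadjusted p under 0.05 there were 5 of 33 members in methylparaben against vehicle, where 13.3% of rows were (1 higher and 4 lower, against 7.09% and 6.18% of rows), and 9 of 33 in propylparaben against vehicle, where 12.1% were (1 higher and 8 lower, against 7% and 5.08%). Between the compounds there were 2, 1 in each direction, where 3.47% of rows were, 1.81% higher and 1.66% lower. Fads2, the delta-6 desaturase that opens the synthesis of polyunsaturated fatty acids, had the smallest p. Its intron value ran from 14.1 through a median of 38.1 to 57.5 in propylparaben tumors, from 23.7 through 42.9 to 74.4 in methylparaben tumors, and from 29.4 through 60.4 to 106.1 in vehicle tumors. All 20 propylparaben tumors lay under the vehicle median.

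The intron log2 difference of Fads2 was -0.72 ± 0.16 for propylparaben (SE; adjusted p = 0.115, limma) and -0.48 ± 0.16 for methylparaben (SE; adjusted p = 0.169, limma). At the gene level Fads2 had differences of -0.17 in both (adjusted p = 0.436 and 0.398). Its gene value minus intron value was 0.55 higher on the log2 scale in propylparaben than in vehicle tumors, with 19 of 20 above the vehicle median. That did not pass over the 6667 genes tested for it (adjusted p = 0.406, limma), of which 0% passed. Of 15 members tested for gene minus intron, 3 had an unadjusted p under 0.05 for methylparaben and 3 for propylparaben against vehicle, where 6.36% and 7.27% of genes did, and 1 did between the compounds, where 3.54% did. Elovl5 introns had differences of -0.51 ± 0.15 for propylparaben and -0.35 ± 0.15 for methylparaben (SE), near those at the gene level, and Scd2 introns -0.91 ± 0.34 and -0.98 ± 0.34 from low values (medians of 5.55, 6.04 and 11.5 in propylparaben, methylparaben and vehicle tumors). Srebf1 introns averaged 5.004 ± 2.61 in propylparaben tumors and 7.92 ± 3.94 in vehicle tumors (SD; log2 difference -0.65, adjusted p = 0.333, limma), while its gene level averaged 142.3 ± 23.4 and 130.2 ± 31.5 in the same groups.

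Across the 59 tumors, members were compared in pairs after the group means were removed. Among members with a mean of at least 10 normalised counts, the median Pearson r was 0.18 over 66 pairs of sterol enzymes, 0.26 over 78 pairs of fatty acid genes and 0.11 over 156 pairs across the branches, against 0.0022 over all pairs of genes at that level. Without methylparaben replicate 5 the fatty acid median was 0.12, below the median across the branches, 0.14, and the sterol median was 0.17. The order of these medians changed within groups. For sterol, fatty acid and cross-branch pairs they were 0.05, 0.46 and 0.14 in methylparaben tumors. In the same order they were 0.18, 0.12 and 0.06 in propylparaben tumors and 0.26, 0.12 and 0.15 in vehicle tumors. All are descriptions over pairs that share the same libraries and the same scaling.

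Fasn and Gpam had r = 0.82 (0.61 without methylparaben replicate 5), Acaca and Fasn 0.73 (0.47 without it), and Acly and Gpam 0.70 (0.64 without it), so these pairs of palmitate synthesis and esterification had a lower but still positive r outside that tumor. Acaca had r = 0.68 with Gpam (0.35 without replicate 5) and 0.38 with Acly (0.14 without it). Among the genes of polyunsaturated fatty acid synthesis, Elovl5 and Fads2 had r = 0.79 (0.80 without replicate 5), Elovl5 and Fads1, the delta-5 desaturase, 0.61 (0.62 without it), and Fads1 and Fads2 0.53 in both. Scd2, which makes monounsaturated fatty acids, had r = 0.67 with Fads2, 0.40 with Elovl5 and 0.24 with Fads1. Between these groups of genes r went both ways, from -0.37 for Acly and Fads1 to 0.25 for Acaca and Fads1. The paralogs Scd1 and Scd2 had r = 0.10.

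In the sterol branch, Sqle and Cyp51 had r = 0.64, Mvd and Sqle 0.54, and Hmgcs1 and Cyp51 0.52. The last pair had r = 0.84 without methylparaben replicate 5, where Hmgcs1 was at its highest and Cyp51, at 39.8, was the second lowest of its group. The closest pair across the branches was Hmgcs1 and Elovl6, at r = 0.63 with that tumor and 0.34 without it. Sqle and Scd2 had r = 0.63 with it and 0.60 without it. Ebp, Sc5d and Dhcr7, enzymes of the last sterol steps, had median r values of 0.01, 0.11 and 0.11 with the other sterol enzymes. Lss had 0.11 and Msmo1 0.13.

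**Figure D3:**
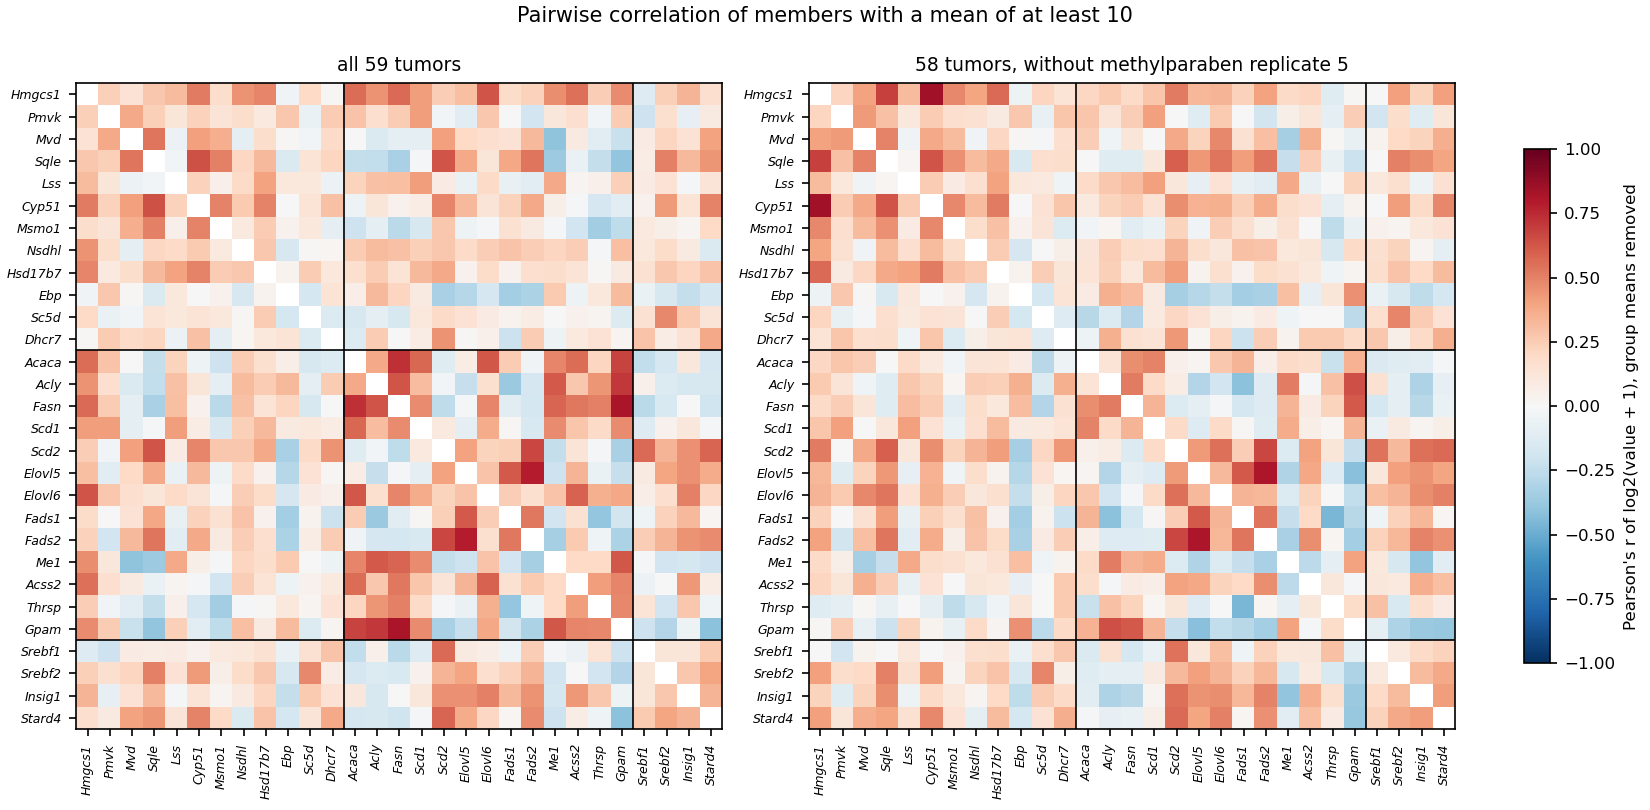
Pearson's r between members with a mean of at least 10 normalised counts, after removal of group means, over all 59 tumors (left) and over 58 without methylparaben replicate 5 (right); black lines part sterol enzymes, fatty acid genes and regulators, in that order. The squares among Acaca, Acly, Fasn and Gpam are paler on the right, and those among Elovl5, Fads1 and Fads2 are not.

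Members were then set against the means of 2 marker lists and against Srebf2, 101 relations in one family (permutation within groups, 100000 resamples, 59 tumors, Benjamini-Hochberg over the family). With the mitosis mean, 10 members were related positively and 2 negatively. The adipocyte mean gave 5 of each. The share of all genes that would pass this test was not computed, so these counts cannot be read as a trait of the members. The 2 marker means were themselves related at r = -0.68, so these are not separate measures. Among all 9143 genes with a mean of at least 10, the middle 90% of r values ran from -0.57 to 0.61 with the mitosis mean and from -0.48 to 0.50 with the adipocyte mean.

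Scd2 had the highest r with the mitosis mean, 0.65 (rho 0.67, adjusted p = 0.000144, permutation), with 0.65, 0.62 and 0.74 within methylparaben, propylparaben and vehicle tumors and 0.62 without the 2 tumors farthest from the median. Stard4, a cytosolic sterol carrier, had r = 0.65 (rho 0.60), Mvd 0.63 (rho 0.65) and Fads2 0.60 (rho 0.59), each with the same adjusted p, which rests on the smallest raw p of 1e-05 that the resamples can give. Sqle (0.56), Dhcr7 (0.45), Elovl5 (0.44), Insig1 (0.40), Cyp51 (0.35) and Fdps (0.35) also passed. Of these 10 members, 9 had r above 0 in each of the 3 groups. Among the 2 regulators or carriers, Stard4 and Insig1, only 1 did. Without the 7 libraries at the end of the first principal component, Elovl5 (r = 0.26), Insig1 (r = 0.31) and Cyp51 (r = 0.31) no longer passed, while Fasn (r = -0.38) and Scd1 (r = -0.39) passed as negative. Me1 (r = -0.48) and Gpam (r = -0.43) were related negatively. Mvd, Scd2 and Stard4 lay above the 95th percentile of all genes, at 0.61, and Fads2 just under it.

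With the adipocyte mean, Gpam had r = 0.56 (rho 0.34, raw p = 7e-05, adjusted p = 0.000786, permutation) and Fasn 0.54 (rho 0.36, raw p = 0.00021, adjusted p = 0.00151, permutation). Without the 2 tumors with the most adipocyte signal, methylparaben replicate 5 and propylparaben replicate 5, the values were 0.29 and 0.25. Without methylparaben replicate 5 alone, Gpam (r = 0.38, adjusted p = 0.0197, permutation) and Fasn (r = 0.35, adjusted p = 0.0267, permutation) still passed. Within vehicle tumors the values were 0.13 for Gpam and 0.16 for Fasn. Me1 (r = 0.42), Acaca (0.40) and Acly (0.37) passed as well, and had r = 0.17, 0.03 and 0.16 without those 2 tumors. By Spearman's rho (0.27, 0.14 and 0.29) they did not pass (adjusted p = 0.0966, 0.407 and 0.0626, permutation). Within vehicle tumors Me1 had r = 0.40, Acly 0.16 and Acaca -0.30, where Acaca had 0.55 in methylparaben and 0.57 in propylparaben tumors. Scd2 was related negatively to the adipocyte mean at r = -0.60 (rho -0.62, adjusted p = 0.000144, permutation), and -0.56 without those 2 tumors. Mvd (-0.55), Sqle (-0.49), Stard4 (-0.47) and Srebf1 (-0.34) were also negative. Without methylparaben replicate 5, Srebf1 no longer passed (r = -0.28, adjusted p = 0.0672, permutation), nor did Me1, Acaca and Acly. Elovl6 had r = -0.002 over all tumors (rho -0.43), and -0.48 without that replicate (adjusted p = 0.000786, permutation).

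**Figure D4:**
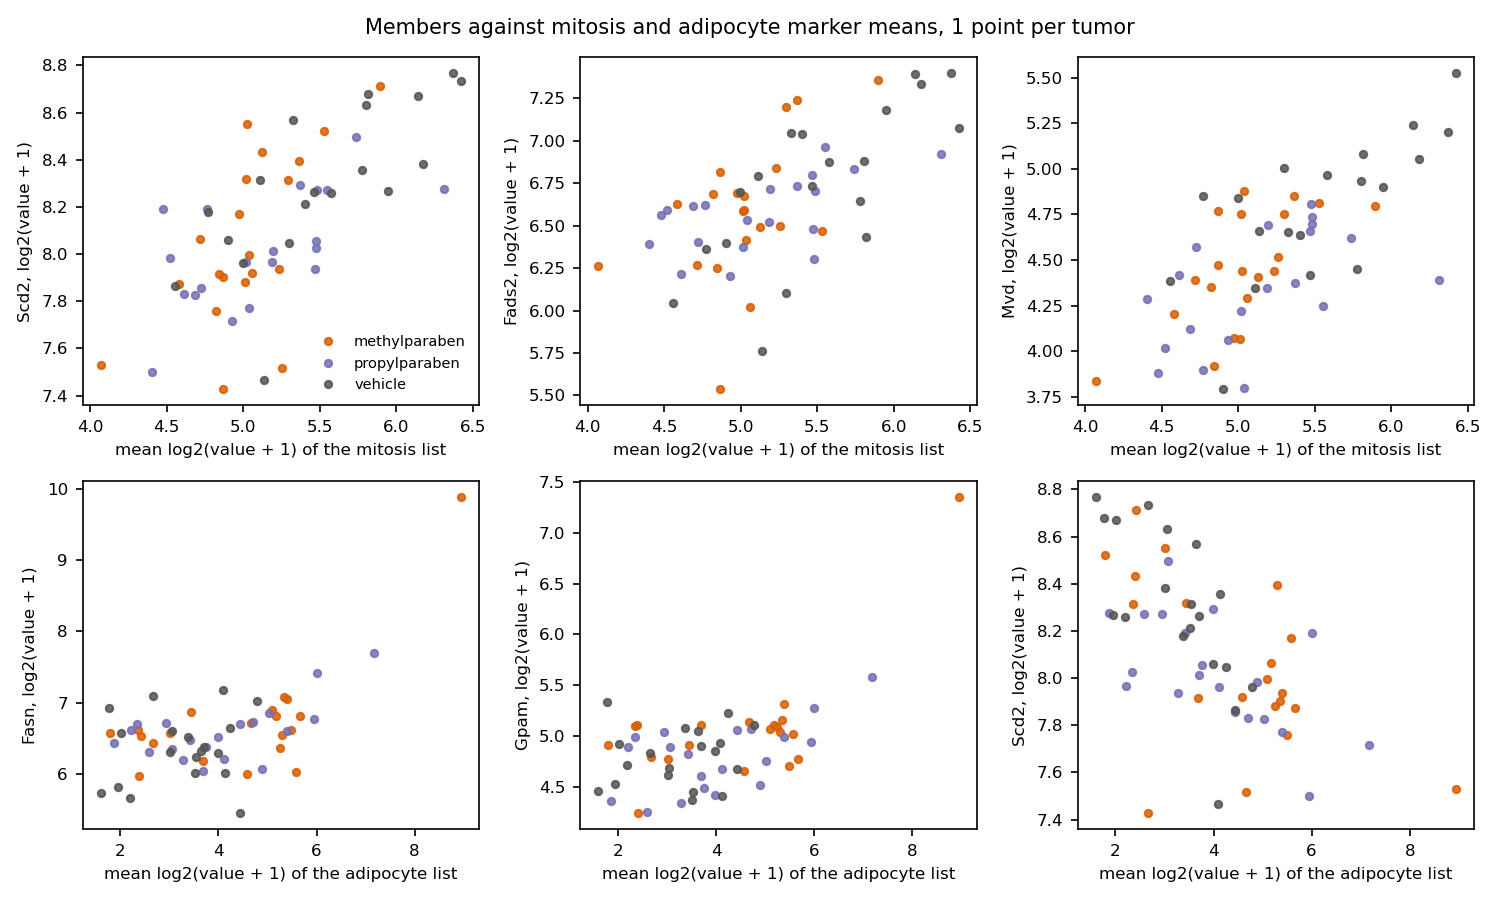
Log2(normalised count + 1) of members against the mean of the same for the 12 mitosis genes (top: Scd2, Fads2, Mvd) and the 13 adipocyte markers (bottom: Fasn, Gpam, Scd2), 1 point per tumor. Scd2 climbs with the mitosis mean and declines with the adipocyte mean across all 3 groups, and the point at the top right for Fasn and Gpam is methylparaben replicate 5.

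Srebf2, which varied little (96.0 to 182.6 normalised counts), was related positively to 7 of the 33 other members and negatively to none. Here too, the share of all genes that would pass was not computed. Sqle came first at r = 0.51 (rho 0.49, raw p = 6e-05, adjusted p = 0.000758, permutation), with 0.39, 0.66 and 0.48 within methylparaben, propylparaben and vehicle tumors. Sc5d, a sterol desaturase, had r = 0.48, Cyp51 0.43, Elovl5 0.40, Stard4 0.39, Scd2 0.34 and Fads2 0.34. Without the same 7 libraries Scd2 (0.29) and Fads2 (0.27) no longer passed. Over all 9143 genes the middle 90% of r values with Srebf2 ran from -0.30 to 0.35, and Scd2 and Fads2 lay within that range. The share of reads outside annotated features had r = -0.41 with Srebf2 itself, -0.46 with Cyp51 and -0.46 with Elovl5, and its part in these relations was not tested. Srebf1 and Srebf2 had r = 0.12, and Srebf1 was closest to Scd2, at r = 0.56. Fasn had r = -0.27 with Srebf1 and -0.15 with Srebf2. Both values include methylparaben replicate 5, with Fasn at 944.8, Srebf1 at 100.9 and Srebf2 at 118.85 normalised counts.

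How closely a member's gene level followed its introns across tumors differed widely. Acss2, the acetyl-CoA synthetase of the cytosol, had r = 0.88, Gpam 0.85, Fads1 0.78, Tm7sf2 0.73 and Cyp51 0.69. Nsdhl, Ebp and Sc5d had -0.04, -0.05 and -0.10. They averaged 22.8, 1.63 and 4.33 in the intron table, where 1 read was worth 0.93 to 3.19 by library. Mvd and Acly each had r = 0.05, with intron means of 2.4 and 40. What part counting error has in these values was not tested.

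Of 14 other genes of sterol handling (among them Scap, Insig2, Npc1, Soat1, Abca1 and Mylip), 14 were tested and none passed in any comparison. The smallest p belonged to Mylip, whose product degrades lipoprotein receptors, at 91.0 ± 20.5 normalised counts in methylparaben tumors and 74.8 ± 22.2 in vehicle tumors (SD; log2 difference 0.31, adjusted p = 0.0900, limma). For propylparaben it was Mbtps2, a protease that releases SREBPs, at 21.3 ± 2.83 and 26.3 ± 5.13 in propylparaben and vehicle tumors (SD; log2 difference -0.28, adjusted p = 0.108, limma). Of 14 other fatty acid genes, 12 were tested and none passed. Acsl1, which activates fatty acids in fat cells, had the smallest p against vehicle for both compounds, with log2 differences of 0.75 for methylparaben (adjusted p = 0.0564, limma) and 0.48 for propylparaben (adjusted p = 0.226, limma). Its mean of 145.1 in methylparaben tumors had an SD of 275.0.
The milk list had a median log2 difference of 0.25 for methylparaben and 0.04 for propylparaben, with 4 and 5 of its 10 genes below 0. Csn3, which had the smallest p, had log2 differences of 0.53 and 0.52, and Csn1s1 had -0.86 and -0.61. The medians were 0.69 and 0.04 for the brown fat list and 0.06 in both for the epithelial list. Of 6 sebaceous genes 2 were tested, and Krt79 had -0.21 and -0.67. None of these passed.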

How the data were processed

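Total RNA from 59 flash-frozen tumors was sequenced. Per the submitters' processing notes, bcl2fastq 2.20.0.422, STAR 2.6.1d and HTSeq 0.10.0 were used with GRCm38. The sources used here do not give the annotation, the use of strand, the definition of introns or the scaling tool. The deposited gene and intron tables hold signal values, counts that the authors scaled separately in each table. Each value was a whole multiple of 1 factor per library (100% of values within 1e-06 reads), which gave back the reads. Depth was 1166502 to 2032789 gene reads per library. Groups follow the labels' treatment. Replicate numbers follow the order of the samples and pair nothing.

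Differences were tested with limma 3.58.1 (trend) in R 4.3.3 on log2(value + 1) for rows with a mean of at least 1, over all 59 libraries, with Benjamini-Hochberg adjustment over all rows (14487 genes, 14281 introns). The scale understates changes of low genes. Gene minus intron was tested for rows with means of at least 10 in both tables. edgeR 4.0.16 and DESeq2 1.42.0 on recovered reads, other pseudocounts, filters, scaling and covariates, and libraries left out were alternatives, and the scripts were tested on simulated data. Correlations used log2(value + 1) with group means removed. Coordinates are GENCODE M21's, and promoter letters RefSeq's. Named genes are, per comparison, members that pass, otherwise the 3 with the smallest p in each branch and 1 regulator, plus Srebf1, Srebf2, Insig1, Sqle, Fasn and Scd1, and the smallest p of each other list. Members, lists and tests were chosen with earlier results of these data known. Leaving out libraries in the correlations was chosen after seeing the data.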

Additional observations from a re-analysis of the deposited data

How the results depend on the processing

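No member was called by limma with a pseudocount of 0.5 or 10, without a filter or with a mean of at least 10, with median-of-ratios scaling, with only the 2 groups compared, with the adipocyte or the mitosis mean as covariate, or without the 7 libraries at the end of the first principal component. On recovered reads edgeR called 1 member against vehicle for each compound and DESeq2 called 2 for each. With each library left out in turn, the count of members called ran from 0 to 3 for methylparaben and from 0 to 2 for propylparaben against vehicle, and was 0 between the compounds. Mvd passed for propylparaben in 11 of 59 such sets (adjusted p 0.0192 to 0.135) and for methylparaben in 2 (0.0217 to 0.147), Me1 for methylparaben in 2, Elovl5 and Sqle for methylparaben in 1 each, and Tm7sf2 for propylparaben in 1. A member was called for methylparaben without methylparaben replicate 4 or vehicle replicate 5, 11 or 17, and for propylparaben without propylparaben replicate 1, 4 or 12 or vehicle replicate 3, 5, 6, 9, 11, 12, 15 or 17. The median of the sterol enzymes ran from -0.08 to -0.02 for methylparaben, from -0.14 to -0.06 for propylparaben and from -0.04 to -0.01 between the compounds, and that of the fatty acid genes from -0.11 to 0.01, from -0.11 to -0.03 and from -0.08 to -0.02. Over all genes, limma called 25, 334, 2 and 0 for methylparaben without a filter, with a mean of at least 10, with 2 groups and with either covariate, and from 1 to 932 for methylparaben, 1 to 424 for propylparaben and 0 to 1 between the compounds with 1 library left out. No paired analysis was possible because replicate numbers follow the order of the samples and pair no tumors. Depth limits Tm7sf2, Mvk, Idi1 and Fdft1, with medians of 7 to 13 reads per library. Without methylparaben replicate 5, chosen after seeing the data, 7 members were related to the adipocyte mean, 15 to the mitosis mean and 10 to Srebf2, against 10, 12 and 7 with it. The share of all genes that would pass was not computed for these counts.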
